A study of Mus musculus with 4 samples.

Results

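The 10 genes described here are antioxidant and Nrf2 pathway genes: Nfe2l2, Keap1, Gclc, Gclm, Txnrd1, Prdx1, Sod1, Sod2, Cat and Gpx1. They were chosen by name, and all 10 were found among the 31017 gene symbols of the count tables. The RNA came from flow-sorted bone marrow monocytes of C57BL/6 mice of wild type genotype, in 2 libraries of 18-month-old animals (aged) and 2 of 3-month-old animals (young). All 4 libraries are tagged with atherosclerosis as the disease. Their labels do not state the presence of plaques, any pooling of animals, or separate animals for the libraries of a group. So the p-values reflect only how far these particular libraries differ, and that spread may be technical. By its title, the study asked how marrow age bears on smooth muscle cell clones in plaques, and the comparison given below is aged against young.

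Nrf2, the product of Nfe2l2, is a transcription factor that is made constantly and destroyed just as constantly. Its partner Keap1 holds it in the cytoplasm and hands it to a ubiquitin ligase. Oxidants and electrophiles modify cysteines of Keap1, Nrf2 then escapes, enters the nucleus, pairs with a small Maf protein and binds antioxidant response elements in front of genes for glutathione synthesis, thioredoxin reduction and detoxification. Because this control acts on the protein, the messenger RNA of Nfe2l2 and Keap1 does not report the activity of Nrf2. In phagocytes such as monocytes the same enzymes meet the superoxide that the NADPH oxidase makes on purpose.

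The antioxidant response element is shown first, since it is the DNA sequence that links Nrf2 to its targets. Its core was searched as TGACNNNGC on both strands in RefSeq promoter windows of 300 bases (250 before and 50 after a start site, GRCm38.p6). It was present in 5 of the 11 windows of the 9 members that matched the promoter table, and in 12.4% of all 32851 windows. Gclc had no entry. In each line the capitals mark the core, written 5′ to 3′ on the strand of the gene, so that GCNNNGTCA is a core on the opposite strand.
Nfe2l2, chr2:75704885-75704913, minus strand: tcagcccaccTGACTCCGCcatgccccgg
Gclm, chr3:122245413-122245441, plus strand: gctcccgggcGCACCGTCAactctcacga
Prdx1, chr4:116685456-116685484, plus strand: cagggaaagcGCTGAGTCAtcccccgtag
Txnrd1, chr10:82859104-82859132, plus strand: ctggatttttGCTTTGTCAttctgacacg
Sod1, chr16:90220696-90220724, plus strand: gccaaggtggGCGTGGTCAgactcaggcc
The core began 240 bases before the start site in Nfe2l2, 134 in Gclm, 133 in Prdx1, 92 in Txnrd1 and 56 in Sod1. Txnrd1 had 3 windows, of which 1 held a core. The Prdx1 core also contains a match to the AP-1 motif TGANTCA, searched on both strands and present in 7.81% of all windows. These matches describe the letters in the windows, and no binding was measured.

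The 4 libraries held 20159129 to 34278754 counts each, and 12035 genes entered the test. Lyz2, the lysozyme gene and a listed monocyte marker, took 3.30% to 3.51% of the counts in all 4 libraries. Neutrophil and granule markers were abundant too, at 34985 to 36602 CPM summed, so Lyz2 alone does not show the purity of the cells. The lowest count of any of the 10 genes was 682 (Gclc in young replicate 2). In each pair of values, replicate 1 comes before replicate 2. Values below are CPM, counts scaled to the TMM-adjusted library size, which compare 1 gene between libraries. They do not compare genes of different length.

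None of the 10 antioxidant genes passed the test between aged and young monocytes. With edgeR's quasi-likelihood test and a Benjamini-Hochberg adjusted p of at most 0.05, 0 of 10 were called, where 5.77% of all tested genes were (2.87% as higher and 2.89% as lower in aged). At an unadjusted p under 0.05 there was 1, Nfe2l2, against 21.1% of all tested genes. DESeq2 and limma-voom also called 0. The estimated log2 changes (aged minus young) ran from -0.16 for Sod1 to 0.18 for Nfe2l2, with 4 positive and 6 negative (5 of each with upper-quartile scaling or library size alone). Their median was -0.032, beside -0.0044 over all tested genes, and the median of their absolute size was 0.070, beside 0.15. Abundance was not matched in this comparison. A mean of at least 5 CPM was reached by 9193 of the 12035 tested genes, and none of the 10 was below 31.5 CPM. The 95% intervals, each for a single gene, reached at most a 1.29-fold difference (Sod1). A log2 change of 1 is a doubling. In 7 of the 10 genes the aged and young libraries did not overlap, 2 with the aged libraries above and 5 below, which held for 51.6% of all tested genes (25.9% above, 25.7% below).

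**Figure D1:**
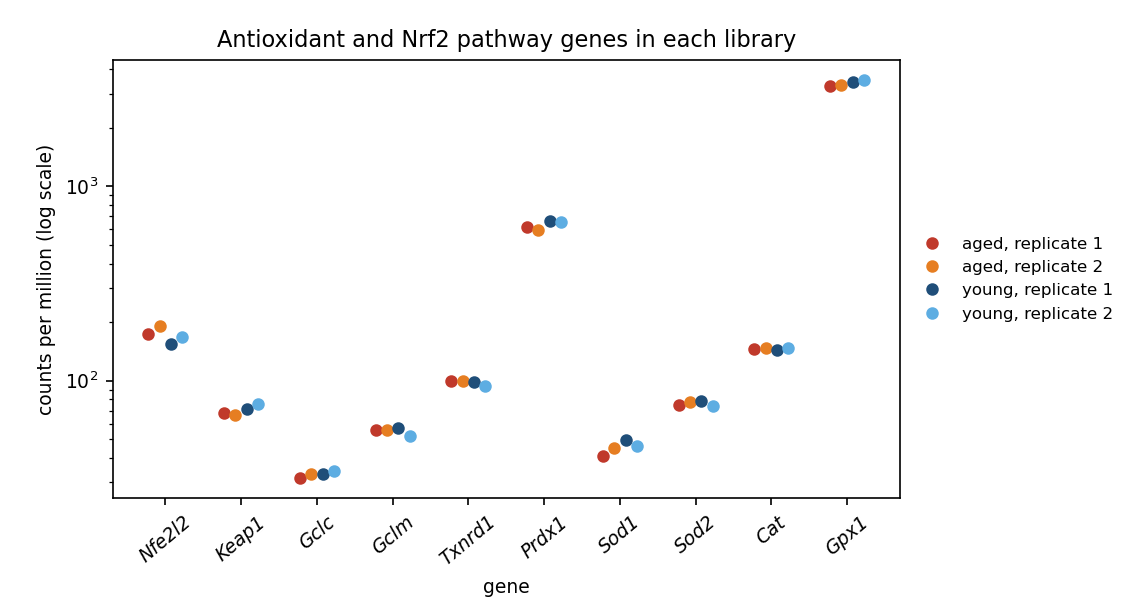
CPM (log scale) of the 10 antioxidant and Nrf2 pathway genes, with 1 point per library (red and orange, aged; dark and light blue, young). The 4 libraries lie close together within each gene, from 31.5 CPM for Gclc in aged replicate 1 to 3529 CPM for Gpx1 in young replicate 2.

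Nfe2l2, the Nrf2 gene (chromosome 2, 75675513 to 75704641), stood at 174 and 190.1 CPM in aged replicates 1 and 2 and at 154 and 168 CPM in young replicates 1 and 2. Both aged libraries were above both young ones, by a margin smaller than the distance between the libraries of either age. The log2 change was 0.18 ± 0.071 (standard error, n = 2 per group), with a 95% interval from 0.020 to 0.33 and an edgeR adjusted p = 0.184. With all 4 libraries this was the largest estimate of the 10 in either direction, and 55.7% of all tested genes had a smaller one. It fell to 0.11 without aged replicate 2, where Sod1 had the larger estimate (-0.23), and to 0.12 without young replicate 1, where Keap1 did (-0.16). It was 0.24 without either of the other two libraries. In bulk RNA, a change in the share of cells of a type and a change in RNA per cell cannot be told apart, which holds for each gene below.

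Keap1, the gene of the Nrf2 sensor (chromosome 9, 21229730 to 21239361), stood at 68.0 and 66.9 CPM (aged) against 71.1 and 75.4 CPM (young). The aged libraries were the lower pair, without overlap. The log2 change was -0.12 ± 0.076, with a 95% interval from -0.29 to 0.051 and an edgeR adjusted p = 0.413. An antisense gene, Gm16754, shares 510 bases with Keap1 exons, and its own counts were between 0 and 11.

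Gclc and Gclm encode the catalytic and the modifier subunit of glutamate-cysteine ligase, the enzyme that sets the rate of glutathione synthesis. Gclc (chromosome 9, 77754535 to 77794485) stood at 31.5 and 33.0 CPM (aged) against 33.2 and 34.2 CPM (young), with a log2 change of -0.063 ± 0.094 (95% interval -0.27 to 0.15, edgeR adjusted p = 0.75). The aged libraries were both lower, but aged replicate 2 and young replicate 1 nearly met. Gclm (chromosome 3, 122245557 to 122270732) stood at 56.0 and 55.8 CPM (aged) against 56.9 and 52.2 CPM (young), with a log2 change of 0.033 ± 0.083 (95% interval -0.15 to 0.22, edgeR adjusted p = 0.863). The aged values lay between the young ones. Gclm exons share 244 bases with the pseudogene Gm6061 on the same strand and 296 with Gm17494 on the other strand. Those 2 symbols were not among the 31017 gene symbols of the count tables. Neither subunit gene differed between ages by more than the test could tell from the spread.

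Txnrd1 encodes thioredoxin reductase, a selenoprotein that returns oxidised thioredoxin to its reduced form with electrons from NADPH. It stood at 99.9 and 99.8 CPM (aged) against 98.8 and 94.3 CPM (young) (chromosome 10, 82833951 to 82897712). The aged libraries were above the young ones by about 1 CPM at the nearest, and the log2 change was 0.048 ± 0.069 (95% interval -0.10 to 0.20, edgeR adjusted p = 0.735). Prdx1 encodes a peroxiredoxin, which breaks down hydrogen peroxide and is itself reduced by thioredoxin. It stood at 616 and 599 CPM (aged) against 661 and 653 CPM (young) (chromosome 4, 116685544 to 116700822). Here the groups were separate, with the aged pair lower by more than the libraries of either age differed, and the log2 change was -0.11 ± 0.051 (95% interval -0.23 to 0.0016, edgeR adjusted p = 0.244). Its unadjusted p was 0.0528.

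The superoxide dismutases turn superoxide into hydrogen peroxide, Sod1 with copper and zinc in the cytosol and Sod2 with manganese in the mitochondrial matrix. Sod1 (chromosome 16, 90220754 to 90226329) stood at 40.8 and 44.8 CPM (aged) against 49.6 and 45.9 CPM (young), with a log2 change of -0.16 ± 0.092 (95% interval -0.37 to 0.044, edgeR adjusted p = 0.353). Aged replicate 2 and young replicate 2 were almost level, and aged replicate 1 and young replicate 1 set the gap. Sod2 (chromosome 17, 13006846 to 13040063) stood at 75.3 and 78.0 CPM (aged) against 78.9 and 74.4 CPM (young). Its log2 change was -0.0010 ± 0.075 (95% interval -0.17 to 0.17, edgeR adjusted p = 0.995), the smallest of the 10 with all 4 libraries, and the groups overlapped, so it is given no direction.

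Cat and Gpx1 encode the enzymes that remove hydrogen peroxide outright, catalase in peroxisomes and glutathione peroxidase 1, a selenoprotein, at the cost of glutathione. Cat (chromosome 2, 103453849 to 103485160) stood at 145 and 148 CPM (aged) against 143 and 147 CPM (young), with overlapping groups and a log2 change of 0.013 ± 0.062 (95% interval -0.12 to 0.15, edgeR adjusted p = 0.929). Its interval held at most a 1.11-fold difference, the least of the 10. Gpx1 (chromosome 9, 108338903 to 108340343) stood at 3279.8 and 3322 CPM (aged) against 3438 and 3529 CPM (young). The aged pair was lower without overlap, by a log2 change of -0.078 ± 0.048 (95% interval -0.18 to 0.028, edgeR adjusted p = 0.384). Gpx1 alone made up 71.5% to 72.4% of the counts of the 10 genes and 0.330% to 0.349% of all counts, and by count it ranked between the 15th and the 17th gene of each library.

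**Figure D2:**
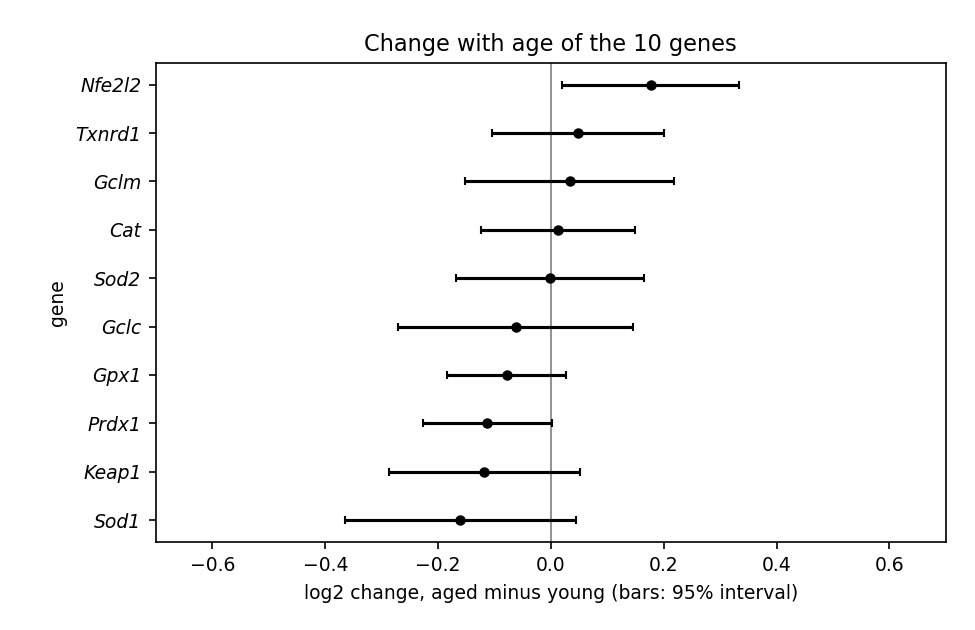
Log2 change (aged minus young) of each of the 10 genes, with bars for the 95% interval of the edgeR fit. The points run from -0.16 for Sod1 to 0.18 for Nfe2l2, and the interval of Nfe2l2 alone lies to 1 side of 0, before adjustment for the number of genes tested.

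Compared per length, the 10 genes covered a wide range. Levels were taken as counts per kilobase of merged exons, scaled to a common sum over the genes with a length (TPM), where the median tested gene stood at 15.3 TPM. Gpx1 stood highest, at 6602 to 6983 TPM over the 4 libraries, which gave it rank 10 to 12 among 30477 symbols. Prdx1 followed at 564 to 626 TPM, Cat at 158 to 162 TPM and Nfe2l2 at 117 to 143 TPM. Keap1 (40.8 to 45.8 TPM) and Txnrd1 (38.0 to 41.1 TPM) overlapped and had no order between them. Sod1 stood at 29.9 to 36.0 TPM. Gclm (23.6 to 26.1 TPM) and Gclc (24.4 to 25.9 TPM) overlapped too, and Sod2 came last at 21.2 to 22.7 TPM. With the longest single transcript as the length, Gpx1 and Prdx1 alone kept their places. Nfe2l2 then passed Cat (156 against 125 TPM), Txnrd1 passed Keap1 (60.9 against 43.7 TPM) and Sod2 moved above Sod1 (29.4 against 25.6 TPM). So the order below Prdx1 depends on the gene model. Sod1 and Cat had the same length under both settings (3970 and 2613 bases), so the alternative does not test the lengths used for them.

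Ratios within a library do not depend on library scaling, and 4 pairs were compared with their values known. The level per length of Nfe2l2 over that of Keap1 was 3.16 and 3.52 (aged) against 2.68 and 2.75 (young), 3.34 ± 0.254 against 2.72 ± 0.0463 (SD, n = 2 per group). Sod2 over Sod1 was 0.732 and 0.690 (aged) against 0.631 and 0.643 (young). The size of this ratio depends on the gene model, since with the longest transcript Sod2 stood above Sod1 (29.4 against 25.6 TPM). Gpx1 over Cat was 40.9 and 40.8 against 43.5 and 43.6. In these 3 ratios the groups did not overlap. The exact two-sided permutation p was 0.333 each (n = 2 per group) and 0.444 adjusted over the 4 ratios. As 0.333 is the smallest p this design can give, the test cannot decide whether the ratios differ with age. The share of other gene pairs without overlap was not computed, and 51.6% of all tested single genes did not overlap. Gclm over Gclc, the ratio of the 2 ligase subunit genes, was 1.06 and 1.01 (aged) against 1.03 and 0.913 (young), and the groups overlapped (exact p = 0.667).

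Around these genes, 115 other tested genes of the antioxidant system were examined in 6 lists, some of which share members. Of the 115, 2 rose and 5 fell in aged monocytes (edgeR), which is close to the 5.77% called among all tested genes, and their median log2 change was 0.017. The 7 were Sqstm1 and Msra, which rose, and Txnip, Ep300, Abcc4, Txn1 and Prdx4, which fell. Leaving out young replicate 1, the deepest library, left 2 of these calls, Txnip and Ep300.

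Among 17 genes that control or resemble Nrf2, 1 rose and 1 fell, beside 5.77% called among all tested genes, with a median of 0.016. Sqstm1, the gene of p62, an autophagy receptor that can pull Keap1 away from Nrf2, stood at 259 and 257 CPM (aged) against 217 and 214 CPM (young) (log2 change 0.26 ± 0.056, edgeR adjusted p = 0.0256). Ep300, the gene of the acetyltransferase p300, a coactivator of Nrf2 and many other factors, stood at 150 and 151 CPM (aged) against 191 and 208 CPM (young) (-0.40 ± 0.065, edgeR adjusted p = 0.00576). Both genes were separate by more than the libraries of 1 age differed. The abundant Nfe2, a relative of Nfe2l2 known from platelet and red cell formation, stood at 403 and 412 CPM against 370 and 374 CPM and did not pass (0.13 ± 0.053, edgeR adjusted p = 0.191). Sqstm1 was lost without aged replicate 2 (adjusted p = 0.0503), young replicate 1 (0.161) or young replicate 2 (0.121), whereas Ep300 passed with each library left out.

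Of 27 tested Nrf2 targets outside the 10 genes, 0 rose and 2 fell with edgeR and with DESeq2, and the median was 0.027. An unadjusted edgeR p under 0.05 was found in 6. Beside these stand 5.77% of all tested genes called by edgeR and 21.1% at the unadjusted cut. Limma-voom called 2 falls and 1 rise, that of Ftl1 (adjusted p = 0.0489), which edgeR also called without a low-count filter (0.00638). Of the 25 with a promoter window, 9 held the core of the antioxidant response element in at least 1 window. This counts genes, whereas the 12.4% given above is a share of windows, and the share of all genes was not computed. Abcc4, an exporter of organic anions, stood at 89.8 and 88.3 CPM (aged) against 130 and 116 CPM (young) (-0.47 ± 0.075, edgeR adjusted p = 0.00593), and did not pass without young replicate 1 (0.0814). Txn1, the other called target, is described with the thioredoxin genes. Textbook targets did not pass. Nqo1, a quinone reductase, was barely present, with 36 and 30 counts (aged) against 61 and 40 counts (young) (-0.41 ± 0.35, edgeR adjusted p = 0.553). Hmox1, which degrades haem, stood at 109 and 116 against 103 and 106 CPM (0.11 ± 0.070, adjusted p = 0.402). Srxn1, which repairs overoxidised peroxiredoxins, stood at 7.62 and 6.44 against 6.14 and 7.68 CPM. The ferritin chain genes Ftl1 (5296 and 5365 against 4697 and 4969 CPM) and Fth1 (1882 and 1882 against 1707 and 1766 CPM) were the most abundant targets and did not pass in the edgeR fit (adjusted p = 0.132 and 0.206).

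Of 20 tested thioredoxin, peroxiredoxin and methionine sulfoxide reductase genes, 1 rose and 3 fell, with a median of -0.0098, beside 5.77% called among all tested genes. With 1 library left out, 1 to 3 of the 20 passed. Txn1, the thioredoxin that Txnrd1 reduces, stood at 278 and 273 CPM (aged) against 366 and 329 CPM (young) (-0.34 ± 0.064, edgeR adjusted p = 0.0134). Txnip, an inhibitor of thioredoxin that also restrains glucose uptake, stood at 492 and 474 against 672 and 661 CPM (-0.46 ± 0.053, edgeR adjusted p = 0.000703). In both, the aged pair was clearly the lower one. Prdx4, the peroxiredoxin of the endoplasmic reticulum, stood at 81.4 and 82.5 against 101 and 96.7 CPM (-0.27 ± 0.071, edgeR adjusted p = 0.0499), at the edge of the threshold. Msra, which repairs oxidised methionine, stood at 111 and 119 against 93.9 and 90.4 CPM (0.31 ± 0.071, edgeR adjusted p = 0.0302), the only rise in this list. The most abundant member, the mitochondrial and peroxisomal Prdx5, stood at 688 and 721 against 702 and 689 CPM, with overlapping groups. Txnip passed with each library left out; Txn1 did not pass without young replicate 1 (0.16), Msra without any library but aged replicate 1 (0.104 to 0.148), and Prdx4 without any of the 4 (0.0772 to 0.341), with DESeq2 (0.0616), with upper-quartile scaling (0.0602) or with library size alone (0.062).

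**Figure D3:**
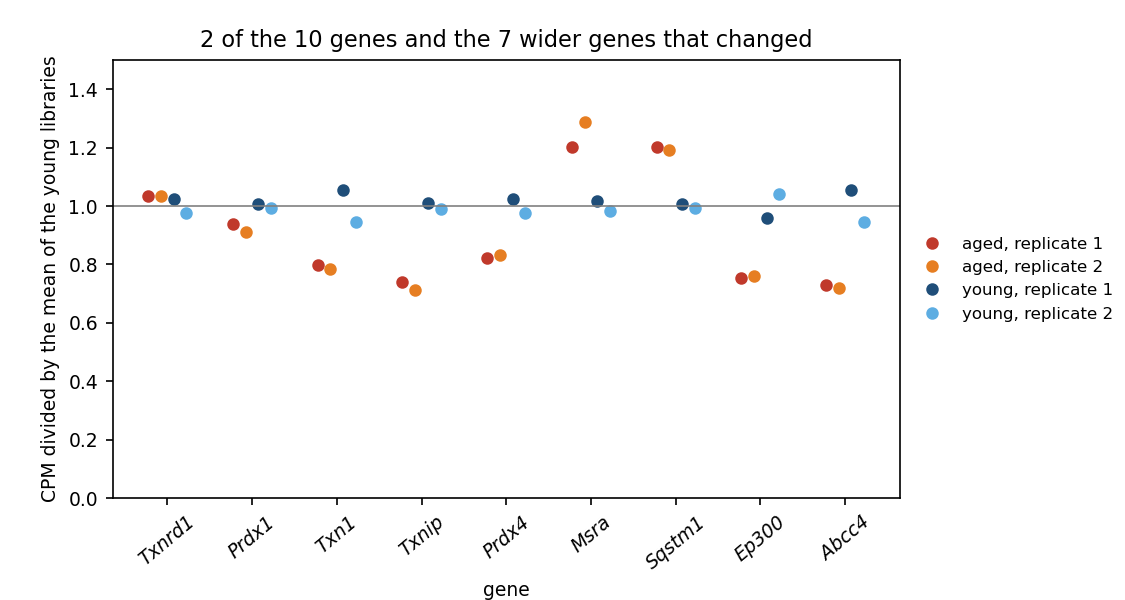
CPM of each library divided by the mean of the 2 young libraries, for Txnrd1, Prdx1 and the 7 genes of the wider lists that passed the test (red and orange, aged; dark and light blue, young; the line marks the young mean). Txn1, Txnip, Prdx4, Ep300 and Abcc4 lie below the young libraries in both aged libraries and Msra and Sqstm1 above, while Txnrd1 and Prdx1 did not pass.

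Among 30 tested glutathione enzyme genes 0 were called by edgeR, by DESeq2 and by limma-voom, beside 5.77% of all tested genes with edgeR. An unadjusted edgeR p under 0.05 was found in 2 of them, beside 21.1% of all tested genes. The median of the 30 was -0.056. Of the 30 estimates 13 were positive and 17 negative, and the aged libraries were both above the young ones in 5 genes and both below in 11, beside 25.9% and 25.7% of all tested genes. Gsr, the glutathione reductase gene, was the most abundant, at 1621 and 1637 CPM (aged) against 1655 and 1730.2 CPM (young) (-0.055 ± 0.050, edgeR adjusted p = 0.576). Mgst1, a membrane-bound glutathione transferase, had the smallest p of the list and stood at 504 and 491 against 547 and 541 CPM (-0.13 ± 0.052, edgeR adjusted p = 0.188). Both genes are among the 11, and a missed threshold does not show that the ages were equal.

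The genes of the phagocyte NADPH oxidase, the source of superoxide in monocytes, gave 0 calls of 10 tested with edgeR and DESeq2. Limma-voom gave 1, and the median was 0.063. At an unadjusted edgeR p under 0.05 there were 3. Beside these stand 5.77% of all tested genes called by edgeR and 21.1% at the unadjusted cut. Cybb, the catalytic chain, stood at 2610.2 and 2553 CPM (aged) against 2723 and 2627 CPM (young) (-0.051 ± 0.049, edgeR adjusted p = 0.596). Rac2, the GTPase that switches the enzyme on, stood at 1457 and 1487 against 1490.0 and 1446 CPM, with overlapping groups. Vav1, an exchange factor for Rac proteins, came closest to the threshold, at 309 and 305 against 267 and 264 CPM (0.21 ± 0.055, edgeR adjusted p = 0.0519). It passed with limma-voom (0.0413), robust edgeR (0.0382) and upper-quartile scaling (0.0433), and with a mean of at least 5 CPM (0.0445) or no low-count filter (0.0201). It did not pass with DESeq2 (0.0753), RLE scaling (0.0518), library size alone (0.055) or any of the 4 libraries left out. With 1 library left out, its log2 change was 0.20 to 0.22.

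Of 18 genes that supply copper, selenium or haem to these enzymes, 0 passed with edgeR, DESeq2 or limma-voom, and the median was 0.021. An unadjusted edgeR p under 0.05 was found in 5. Beside these stand 5.77% of all tested genes called by edgeR and 21.1% at the unadjusted cut. Sephs2, which makes the selenium donor for selenoproteins such as Gpx1 and Txnrd1, stood at 347 and 385 CPM (aged) against 322 and 391 CPM (young), with overlapping groups. Selenop, the secreted selenium carrier, stood at 352 and 324 against 305 and 276 CPM (0.22 ± 0.067, edgeR adjusted p = 0.0915).

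**Figure D4:**
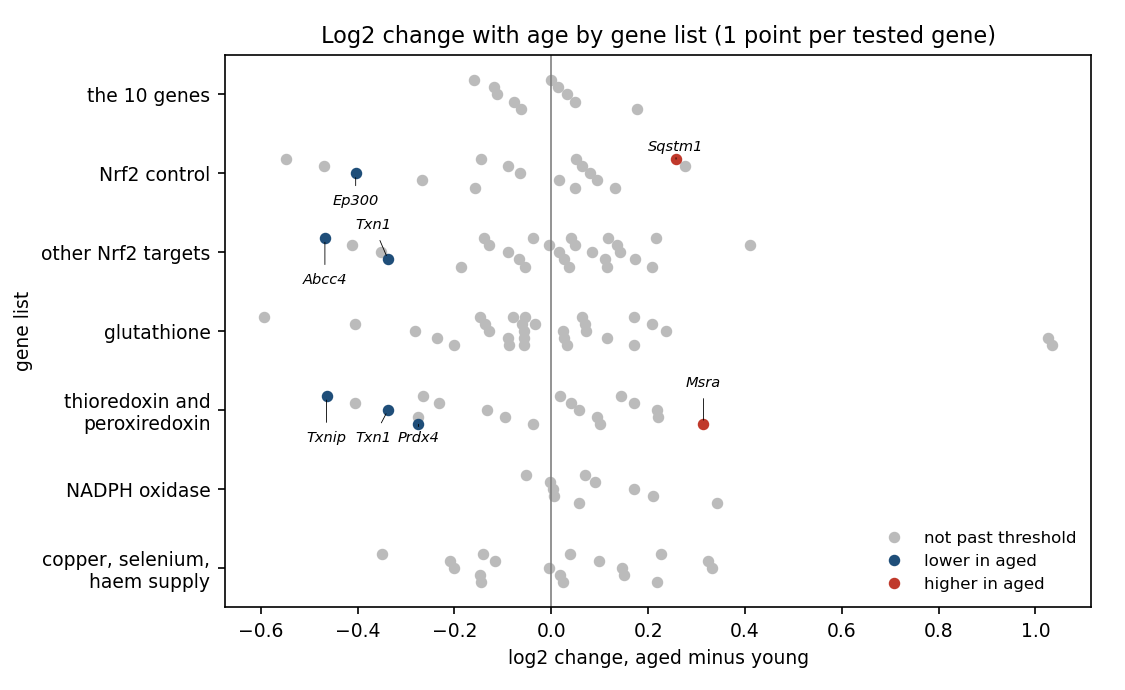
Log2 change (aged minus young) of each tested gene of the 10 antioxidant genes and of the 6 wider lists, 1 point per gene (red, higher in aged; blue, lower; grey, not past the threshold). The 10 genes lie between -0.16 and 0.18, and the 7 named genes are those past the threshold, with Txn1 shown in both lists that hold it.

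Genes of other cell states and types moved between the ages while the 10 antioxidant genes did not pass, and their part in these values was not tested. Markers of non-classical monocytes rose in 9 of 12 cases (summed level 2420.45 and 2351 CPM when aged, against 1809 and 1753 CPM when young), and classical markers fell in 5 of 10 and rose in 1 (18967 and 18983 against 22293 and 22548 CPM). Immediate early genes rose in 14 of 22 (5835 and 6138 against 3649 and 3718 CPM). Red cells are rich in catalase, Gpx1 and Sod1, and of 13 erythroid markers 2 rose, Car2 and Slc4a1, with summed levels of 401 and 414 against 395 and 356 CPM. Of the 13 estimates 11 were positive and 2 negative, with a median of 0.56. Both aged libraries were above both young ones in 9 and below in 0, beside 25.9% and 25.7% of all tested genes. The globin genes Hbb-bs (log2 change -0.064) and Hba-a1 (0.14) did not pass (edgeR adjusted p = 0.652 and 0.274). Neutrophil and granule markers rose in 2 of 14, Ltf and Ngp, and fell in 6 (34985 and 35672 against 36602 and 35189 CPM). Marrow macrophage markers rose in 3 of 12 (565 and 546 against 545 and 562 CPM), while 6 of the 12 had negative estimates, 4 of them with both aged libraries below both young ones. Slc40a1, the iron exporter gene, just missed the threshold as lower (edgeR adjusted p = 0.0501), and DESeq2, limma-voom, RLE scaling and robust edgeR each called 1 of these markers lower. B cell markers rose in 3 of 7 (49.9 and 51.5 against 32.6 and 30.5 CPM), dendritic cell markers in 3 of 10 (312 and 321 against 277 and 281 CPM), with 3 negative estimates, and eosinophil and basophil markers in 2 of 8 (109 and 108 against 86.7 and 90.8 CPM), with 4 negative estimates. T and NK cell markers gave 0 of 10 with edgeR, DESeq2 and limma-voom (47.4 and 46.2 against 49.1 and 54.6 CPM). At an unadjusted edgeR p under 0.05 there were 2 of them, beside 21.1% of all tested genes. Their estimates were positive in 9 and negative in 1, with a median of 0.28, although the summed levels were lower in aged. A mean of at least 5 CPM was reached by 1 of these 10 markers, with a log2 change of -0.33. Of 10 general monocyte markers 2 rose and 1 fell (46438 and 45587 against 44273 and 46742 CPM). Beside all these counts stand 2.87% of all tested genes called higher and 2.89% called lower. Without young replicate 1, the rises went from 3 to 0 for dendritic cell markers, from 2 to 0 for eosinophil and basophil markers, from 3 to 1 for B cell markers, from 3 to 2 for macrophage markers and from 2 to 1 for erythroid and general monocyte markers. The falls of classical markers then went from 5 to 2 and those of neutrophil and granule markers from 6 to 3, while 7 non-classical markers and 12 immediate early genes rose. B cell markers gave 1 rise also without aged replicate 2 or young replicate 2, and eosinophil and basophil markers likewise 1. No marker found in the tables was at 0 in all 4 libraries.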

How the data were processed

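Per the labels' protocols, poly(A) RNA of sorted marrow monocytes was captured on oligo-dT beads for stranded (dUTP) libraries. The authors deposited raw counts by gene symbol in a table for each library, without normalization. Tools listed, with no role, in the submitters' processing notes are STAR 2.5.3, cutadapt, HTSeq and DESeq2, and the build is mm10. Annotation and strand setting: not given in the sources used here. For this reason antisense overlap cannot be separated. Totals of 20159129 to 34278754 counts put the limit of a count of 0 (3 counts) at 0.0875 to 0.149 CPM, for counting error only.

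Genes were kept by filterByExpr (minimum count 10, minimum total 15), scaled by TMM and tested two-sided with edgeR 4.0.16 (R 4.3.3), glmQLFit and glmQLFTest, with p adjusted over all 12035 genes. Standard errors are the log2 change over the square root of F, and 95% intervals use the total quasi-likelihood degrees of freedom. Alternatives were other scalings and filters, DESeq2 1.42.0, limma-voom (limma 3.58.1), robust edgeR, a fit blocked on replicate number, and leaving out each library. The fit was tested on simulated data. Positions and exon lengths are from GENCODE M21 (GRCm38), in which 30477 symbols matched 1 gene. Alignment of member transcripts (blastn, at least 95% identity over 100 bases) found near-identical processed pseudogenes for Prdx1 (2 genes) and Sod1 (1), a processed transcript matching 103 bases of Gclm, and repeats in Sod2 shared with 9 genes, so those counts are uncertain to that extent.

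The 10 genes and all lists were chosen with earlier results of these data known. Genes named are the 10, up to 4 called per direction and the 2 most abundant of each wider list, the member of smallest p where none passed, and Nqo1, Hmox1, Srxn1, Gsr, Txn1 and Cybb; of cell type lists fewer are named. Cybc1 and Ahsp were not analysed here.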

Additional observations from a re-analysis of the deposited data

How the results depend on the processing

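With each alternative other than the replicate block, 0 of the 10 antioxidant genes passed. With the replicate number as a block, 1 of 10 did, Nfe2l2 (log2 change 0.18, edgeR adjusted p = 0.0383), and the counts rose to 1817 of all genes and 20 of the wider lists, against 694 and 7. The numbers are not known to pair the libraries: the differences between replicates 1 and 2 of each age correlated at 0.094 across genes, and 2 pairs are too few for a check. Over all 13 alternatives the adjusted p of Nfe2l2 ranged from 0.0383 to 0.639. Without a low-count filter 1399 genes passed, and 14 of the wider lists. Leaving out 1 library gave 197 to 1040 genes in all, 2 to 10 of the wider lists, 0 of the 10 genes, and a median of the 10 from -0.059 to -0.0026; the lowest counts came without young replicate 1. With the longest transcript as length, 2 of 10 genes kept their place in the order of levels.

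Signs turned in genes near 0. The Sod2 log2 change was 0.012 with upper-quartile scaling and 0.0017 with library size alone; these scalings also moved the median of all genes, from -0.0044 to 0.0083 and -0.0015. Leaving out 1 library, it ranged from -0.044 to 0.045 for Sod2, -0.0022 to 0.029 for Cat, -0.027 to 0.10 for Gclm, -0.12 to 0.20 for Srxn1, -0.018 to 0.053 for Prdx5, -0.019 to 0.027 for Rac2, -0.094 to 0.18 for Sephs2 and -0.15 to 0.025 for Hbb-bs. The cause of these shifts was not tested. With 2 libraries per age, the 95% intervals of the 10 genes hold differences of up to 1.11-fold (Cat) to 1.29-fold (Sod1). Depth limits the rarest named genes most, such as Nqo1 with 30 to 61 counts.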
